A study of Mus musculus with 6 samples.

Results

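The transcripts of the mouse mitochondrial genome were followed in primary cortical cell cultures treated with vehicle or with 10HDA, a fatty acid of royal jelly. They were chosen by name, as the genes of the count table whose identifier maps to a symbol that begins with "mt-". This gave 37 of 43346 genes, namely 2 rRNAs, 13 mRNAs and 22 tRNAs, which is the whole gene set of the mitochondrial chromosome. The genes were singled out with earlier results of the same comparison known, so their differences between treatments are given as a description and are not independent evidence.

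The RNA came from cortical cells of mouse fetuses at gestational day 15.5, cultured and treated either with DMSO (spelled DSMO in the labels), the vehicle, or with 1 mM 10HDA. Each of cultures 1, 3 and 4 gave 1 vehicle library and 1 10HDA library, 6 libraries in all. The labels name Cyp19-EGFP mice, which carry EGFP on a bacterial artificial chromosome with the aromatase gene, for both treatments, whereas the methods for these cultures name C57BL/6 embryos. All 6 libraries are labelled male (SRY positive), the duration of treatment is not in the labels, and it is not stated how many fetuses went into a culture. The libraries held 9144736 to 13367194 counts on genes.

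Genes of the Y chromosome (the sum of Ddx3y, Eif2s3y, Kdm5d and Uty) were at 9.07 and 9.30 CPM (counts relative to a scaled library total, by the TMM method) in the vehicle and 10HDA libraries of culture 1, against 97.8 to 136 CPM in the other 4 libraries. Culture 1 thus went against its male label, and the values of the rRNAs, the class shares and the calls with culture as a block are also given without it. All 12 neuron markers passed the filter on expression, at 9608 to 12214 CPM summed, whereas the 8 microglia markers summed to 0.811 to 1.23 CPM and Tmem119 was at 0.

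Mitochondrial DNA is a small circle that encodes rRNAs and tRNAs for the mitochondrial ribosome together with subunits of the respiratory chain and of ATP synthase. Each strand is transcribed into a long precursor. The heavy-strand transcript has the rRNAs near its start and holds most of the genes, and the light-strand transcript holds mt-Nd6 and some of the tRNAs. Since tRNAs lie between most of the rRNA and mRNA sequences, their excision by RNase P and ELAC2 frees the neighbouring RNAs, after which most mRNAs and the rRNAs receive short A tails and the tRNAs receive their CCA end. Every enzyme of these steps is encoded in the nucleus, and neurons depend heavily on the respiratory chain that the products build.

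In the annotation (GENCODE M21, GRCm38, the assembly also called mm10), 28 of the 37 genes were on the plus strand of the mitochondrial chromosome, read as the heavy-strand transcript, and 9 were on the minus strand. The 9 were mt-Nd6 and 8 tRNAs (mt-Tq, mt-Ta, mt-Tn, mt-Tc, mt-Ty, mt-Ts1, mt-Te and mt-Tp). Of the 36 neighbouring pairs of genes, 35 lay at most 5 bases apart or overlapped. Hence a 50-base read that crosses a gene's end often touches the next gene. The 2 regions below are those around mt-Tv and mt-Tl1, where an rRNA touches a tRNA. They are shown because, with all 6 libraries, both rRNAs differed most among the tested members. Each gives the last 30 bases of one RNA, the tRNA in capitals, and the first 30 bases of the next RNA, with no base between them.
mt-Rnr1, mt-Tv, mt-Rnr2 (chrM:995-1123, plus strand): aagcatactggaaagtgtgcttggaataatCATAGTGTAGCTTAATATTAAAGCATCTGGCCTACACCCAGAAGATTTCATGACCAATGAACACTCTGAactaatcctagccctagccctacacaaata
mt-Rnr2, mt-Tl1, mt-Nd1 (chrM:2646-2780, plus strand): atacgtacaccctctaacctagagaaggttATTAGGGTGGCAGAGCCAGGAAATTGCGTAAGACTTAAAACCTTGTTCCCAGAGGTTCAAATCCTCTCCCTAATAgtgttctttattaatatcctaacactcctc

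The 5 tRNAs shown next, whose values are taken up further on, were picked after their values were seen and have the anticodon in capitals, which was located by its triplet in a loop closed by a stem. The sequences are those of GENCODE M21, 5′ to 3′, in DNA letters, without the CCA end that is added after transcription.
mt-Tp, tRNA for proline (chrM:15356-15422, minus strand): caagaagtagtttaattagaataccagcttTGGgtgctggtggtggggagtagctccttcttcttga
mt-Te, tRNA for glutamate (chrM:14071-14139, minus strand): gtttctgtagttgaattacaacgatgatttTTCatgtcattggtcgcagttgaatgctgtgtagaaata
mt-Tc, tRNA for cysteine (chrM:5192-5257, minus strand): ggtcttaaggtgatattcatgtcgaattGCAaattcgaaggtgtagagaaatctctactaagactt
mt-Tm, tRNA for methionine (chrM:3845-3913, plus strand): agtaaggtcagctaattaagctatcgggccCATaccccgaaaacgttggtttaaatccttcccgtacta
mt-Tq, tRNA for glutamine (chrM:3772-3842, minus strand): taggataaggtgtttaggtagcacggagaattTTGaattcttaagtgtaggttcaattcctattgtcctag

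By class, mRNAs took nearly all mitochondrial counts. The 13 mRNAs held 3.78%, 3.43% and 4.86% of all counts in the vehicle libraries of cultures 1, 3 and 4, and 3.80%, 3.17% and 4.31% in the 10HDA libraries. The 2 rRNAs held 0.133%, 0.119% and 0.119% with vehicle, and 0.0782%, 0.0758% and 0.0860% with 10HDA. The 22 tRNAs together held only 0.00374% to 0.00519% of counts. The rRNA share was therefore lower with 10HDA than with vehicle in 3 of 3 cultures and did not overlap between treatments, whereas the mRNA and tRNA shares overlapped. On the log2 scale, the ratio of the mean shares (10HDA to vehicle) was -0.63 for rRNAs, -0.098 for mRNAs and -0.030 for tRNAs, and without culture 1 it was -0.55, -0.15 and -0.15. With any 1 library left out the rRNA value stayed below 0, whereas the mRNA and tRNA values took both signs.

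**Figure D1:**
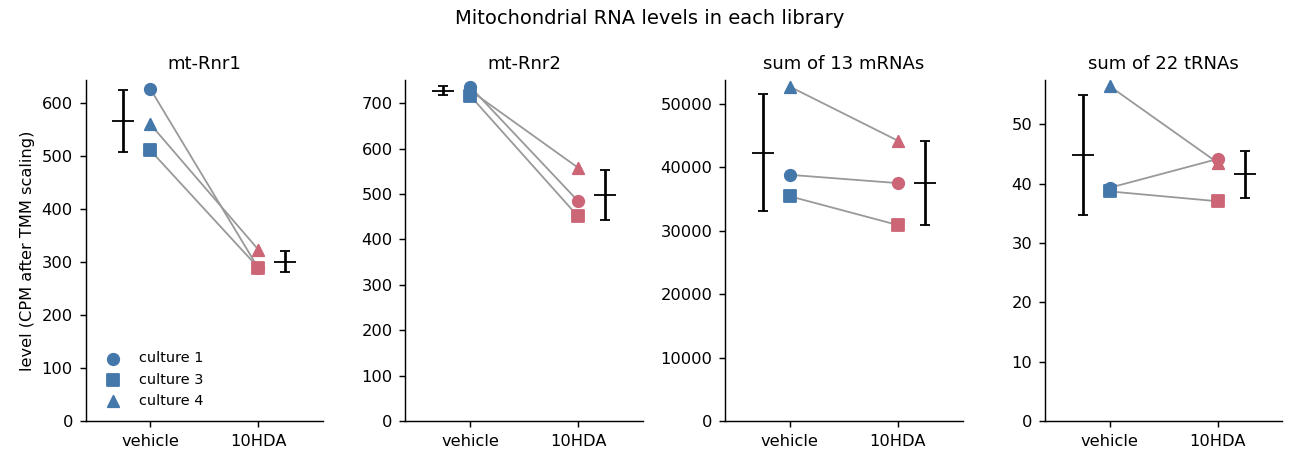
Levels of mt-Rnr1, mt-Rnr2, the 13 mRNAs summed and the 22 tRNAs summed, in CPM after TMM scaling (linear axes from 0). Points are the 6 libraries, lines join the libraries of a culture, and bars beside them give the mean and SD of the 3 libraries of a treatment. Both rRNAs lay lower with 10HDA in 3 of 3 cultures without overlap, from 511 to 627 CPM down to 289 to 324 CPM for mt-Rnr1, whereas the mRNA and tRNA sums overlapped.

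Both rRNAs of the mitochondrial ribosome were lower in 10HDA-treated cultures. mt-Rnr1 (ENSMUSG00000064337.1, chrM:70-1024), the RNA of the small ribosomal subunit, had 627, 511 and 561 CPM in the vehicle libraries of cultures 1, 3 and 4, and 289, 289 and 324 CPM with 10HDA. The treatments did not overlap, and the 10HDA libraries were closer to each other than the vehicle libraries were. Vehicle libraries averaged 566 ± 58.2 CPM and 10HDA libraries 301 ± 20 CPM (SD, n = 3 each). The log2 fold change was -0.91 ± 0.11 (SE), with an adjusted p of 0.0149 over 10520 genes in the quasi-likelihood test of edgeR. This was the smallest p in the table.

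mt-Rnr2 (ENSMUSG00000064339.1, chrM:1094-2675), the RNA of the large ribosomal subunit, had 737, 717 and 728 CPM with vehicle and 484, 451 and 558 CPM with 10HDA. Here the vehicle libraries were nearly equal, and the 10HDA library of culture 4 was the nearest to them. The log2 fold change was -0.55 ± 0.11 (SE, adjusted p = 0.0701, edgeR), between averages of 727 ± 9.87 and 498 ± 54.9 CPM (SD, n = 3 each). Within cultures 1, 3 and 4, the log2 ratio was -1.12, -0.82 and -0.79 for mt-Rnr1 and -0.60, -0.67 and -0.38 for mt-Rnr2.

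These 2 were the members called lower at an adjusted p under 0.1, out of 16 tested, and 0 were called higher (0 of the 16 rose at an unadjusted p under 0.05, and 0 rose with DESeq2 or limma-voom). Over all genes tested, 0.428% were called lower and 0.2% higher. Both rRNAs were also the tested members whose libraries did not overlap between treatments in the lower direction, which 7.44% of all tested genes showed, and no tested member did so in the higher direction, against 5.96%. Since the genes were picked knowing this comparison, nothing is read from these counts.

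The call on mt-Rnr1 was lost without culture 1, without culture 3 and without the 10HDA library of culture 1. Without culture 1 its log2 fold change was -0.79 (adjusted p = 0.160, edgeR), without culture 3 it was -0.95 (adjusted p = 0.135), and without the 10HDA library of culture 1 it was -0.88 (adjusted p = 0.153), settings in which edgeR called 2, 0 and 0 genes in the whole table, although 665, 689 and 453 had an unadjusted p under 0.05. For mt-Rnr2 the value without culture 1 was -0.50 (adjusted p = 0.501). In that fit mt-Nd4l was at -0.57 and mt-Atp8 at -0.50, so mt-Rnr2 no longer stood below every mRNA. The call on mt-Rnr2 was also lost without culture 3 (-0.49) and with any of 4 single libraries left out. Of these, the 10HDA library of culture 3 moved the value most, to -0.48 (adjusted p = 0.339).

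Summed, the rRNAs also stood lower relative to the mRNAs of the same library. There were 3.51, 3.47 and 2.44 rRNA counts per 100 mRNA counts with vehicle and 2.06, 2.39 and 1.99 with 10HDA, without overlap (mean 3.14 ± 0.604 and 2.15 ± 0.215, SD, n = 3 each). The log2 ratio of the means was -0.55, or -0.43 without culture 1. Against mt-Nd1, the first mRNA after the rRNAs on the heavy-strand transcript, there were 17.6, 15.8 and 10.9 mt-Rnr1 counts per 100 with vehicle and 8.40, 9.86 and 8.97 with 10HDA, again without overlap. Here the log2 ratio of the means was -0.70, or -0.51 without culture 1, the culture with the largest difference. For mt-Rnr2 the same ratio was 20.7, 22.2 and 14.2 with vehicle and 14.1, 15.3 and 15.5 with 10HDA, and these overlapped. In culture 4 the ratio for mt-Rnr2 was higher with 10HDA than with vehicle, and the log2 ratio of the means was -0.34, or -0.24 without culture 1.

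The 2 rRNAs, which are read from the same stretch of the heavy-strand transcript with mt-Tv between them, did not differ between treatments by the same amount. There were 0.851, 0.713 and 0.770 counts of mt-Rnr1 per count of mt-Rnr2 with vehicle and 0.596, 0.642 and 0.580 with 10HDA, without overlap. Vehicle libraries averaged 0.778 ± 0.0696 and 10HDA libraries 0.606 ± 0.0325 (SD, n = 3 each), and the log2 ratio of the means was -0.36, or -0.28 without culture 1. No p is given for such sums and ratios, and 3 libraries against 3 could not reach an exact permutation p below 0.1.

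Levels per kilobase placed both rRNAs among the scarcest of the longer mitochondrial RNAs in these libraries, although rRNAs are known as the most abundant mitochondrial RNAs of a cell. These levels use counts on the mitochondrial gene alone. Of the 15 rRNAs and mRNAs, mt-Co1 had the highest mean with vehicle, 7424 CPM per kilobase, followed by mt-Cytb with 6343 and mt-Atp6 with 4286. mt-Rnr1 was in place 12 with 593 CPM per kilobase (535 to 657 in the 3 libraries) and mt-Rnr2 in place 13 with 459.8 (453 to 466). The ranges of the neighbours mt-Rnr2, mt-Atp8 and mt-Nd3 overlapped, as did those of mt-Rnr1 and mt-Nd4l, whereas mt-Rnr1 and mt-Rnr2 did not overlap. With 49 bases taken off each length, for reads that cross a gene's end, mt-Rnr2 was in place 15 with vehicle. With 10HDA, the rRNAs were in places 14 and 15, with 315 CPM per kilobase each. The order leaves out counts on nuclear copies, which are taken up further on. Copies of mt-Co2, mt-Co3, mt-Atp6 and mt-Nd3 held 90.9 to 121 counts per 100, and that of mt-Nd4l 179 to 276. mt-Cytb and mt-Rnr1 share no stretch with a copy. The places thus depend on how reads were divided, and the order with copies added was not computed.

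The library kit (SureSelect, Agilent) was strand-specific. How RNA was selected, by the kit or before it, is not given in the sources used here. The rRNA values are therefore levels in these libraries and not amounts in the cells. A hand-written list of 8 small nuclear-encoded RNAs without a poly(A) tail, such as Rn7sk and Terc, chosen after the data were seen, held 12 to 32 counts per library. Their sum was 2.93, 1.47 and 2.55 CPM with vehicle and 1.58, 1.84 and 1.35 CPM with 10HDA, so that few reads of them were present in any library. Their part in the rRNA values was not tested.

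Like the rRNAs, 9 of 10 astrocyte and 11 of 12 neuron markers tested had log2 fold changes below 0. Over all 10520 genes tested, 5486 did. Sox9 (0.062) and Nefl (0.0063) were the markers above 0. Of 10 tested astrocyte markers of 12 listed, 5 were called lower and 0 higher (6 and 0 with culture as a block). Over all genes tested, these shares were 0.428% and 0.2% (5.08% and 3.91% with the block). The astrocyte markers summed to 1300 to 1596 CPM with vehicle and 974 to 1213 CPM with 10HDA. Of the endothelial, pericyte and meningeal markers 1 was tested, Pdgfrb, which was lower, and the sum of the 10 listed was 29.2 to 29.8 CPM with vehicle and 14.7 to 17.6 CPM with 10HDA. Neuron markers had 0 of 12 called with edgeR (5 had an unadjusted p under 0.05), 1 with DESeq2 and 0 with limma-voom, with a sum of 11432 to 12214 CPM with vehicle and 9608 to 10638 CPM with 10HDA. With culture as a block, which removes the difference between cultures, 4 of the 12 were called lower and 0 higher, against 5.08% and 3.91% of all genes tested in that fit. In the lower direction 7 of the 12 did not overlap, which 7.44% of all genes tested showed. Of 7 tested progenitor markers 0 were called with these tools (1 had an unadjusted p under 0.05) and 1, Vim, was called higher with the block, and the 10 listed summed to 496 to 527 CPM with vehicle and 500.2 to 582 CPM with 10HDA. With the block and without culture 1, 8 of 10 astrocyte, 5 of 12 neuron and 1 of 6 progenitor markers tested were called. In that fit, which leaves 1 residual degree of freedom, 4.97% of all genes tested were called lower and 3.52% higher. The part of these marker differences in the rRNA result was not tested. In such bulk RNA, fewer cells of a type and less RNA per cell cannot be told apart.

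None of the 13 mRNAs was called in either direction, and 0 had an unadjusted p under 0.05, with DESeq2 and with limma-voom too for the adjusted calls. Their log2 fold changes ran from -0.46 (mt-Atp8) to 0.22 (mt-Nd3) with a median of -0.22, against -0.0095 over all genes tested, and 11 were below 0. In cultures 1, 3 and 4, 8, 12 and 11 of the 13 had a log2 ratio below 0, and 7 did in all 3 cultures. In each of the 13, the libraries of the treatments overlapped. The spread between vehicle libraries was large, since the library of culture 4 was the highest of the 3 for 11 of the mRNAs. Without that library the median log2 fold change of the 13 was 0.0050, and 6 were below 0.

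Subunits of complex I, which takes electrons from NADH, are encoded by 7 of the mRNAs. mt-Nd1 had 3566, 3229 and 5141 CPM in the vehicle libraries of cultures 1, 3 and 4 and 3438, 2936 and 3607 CPM with 10HDA (log2 fold change -0.26 ± 0.18 SE). mt-Nd2 had 1722, 1761 and 2634 CPM with vehicle and 1938, 1543 and 1952 CPM with 10HDA (log2 fold change -0.17). In both, the vehicle library of culture 4 stood above the other 5, and without it the value for mt-Nd1 was -0.013. mt-Nd4 had 3307, 3088 and 5006 CPM with vehicle and 3100.0, 2460.0 and 3856 CPM with 10HDA (log2 fold change -0.28, or -0.010 without the vehicle library of culture 4). mt-Nd5 had 2789, 3719 and 6116 CPM with vehicle and 3759, 3027 and 5014 CPM with 10HDA (log2 fold change -0.097). The log2 ratio of mt-Nd5 was 0.43 in culture 1 and -0.30 and -0.29 in cultures 3 and 4.

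The shorter complex I mRNAs had lower CPM, a level that does not allow for length. Nearly all their stretches also occur in nuclear copies, 98.0% for mt-Nd3 and 98.8% for mt-Nd4l. mt-Nd3 had 164, 162 and 117 CPM with vehicle and 204, 179 and 131 CPM with 10HDA, and was the mRNA with a log2 ratio above 0 in 3 of 3 cultures (log2 fold change 0.22 ± 0.17 SE, adjusted p = 0.667, edgeR). mt-Nd4l had 102, 207 and 264 CPM with vehicle and 161, 131 and 182 CPM with 10HDA. Its log2 ratio was 0.65 in culture 1 and -0.66 and -0.54 in cultures 3 and 4. With the counts of its copy added, mt-Nd4l had 385, 578 and 982 CPM with vehicle and 478, 368 and 629 CPM with 10HDA.

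mt-Nd6, the complex I subunit encoded on the light-strand transcript, had 1013, 1008 and 1693 CPM with vehicle and 1230.2, 965 and 1284 CPM with 10HDA (log2 fold change -0.094). It took 2.61%, 2.84% and 3.21% of the mRNA counts with vehicle and 3.28%, 3.12% and 2.90% with 10HDA, higher in cultures 1 and 3 and lower in culture 4. The annotated ends of mt-Nd6 and mt-Nd5, which lie on opposite strands, overlap by 14 bases, and whether the counting used strand is not stated, so reads of mt-Nd6 and of RNA antisense to it cannot be told apart.

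mt-Cytb, the mitochondrially encoded subunit of complex III, had 6542, 6058 and 9169.5 CPM with vehicle and 6399, 5414 and 6923 CPM with 10HDA (log2 fold change -0.22 ± 0.18 SE). The mRNAs of complex IV, cytochrome c oxidase, had log2 fold changes of both signs. mt-Co1 had 11227, 9131 and 14052 CPM with vehicle and 9791, 8249.7 and 13135 CPM with 10HDA (log2 fold change -0.14). mt-Co2 had 2415, 1957 and 2618 CPM with vehicle and 1986, 1584 and 2294 CPM with 10HDA (log2 fold change -0.25). mt-Co3 had 3086, 2617 and 2304 CPM with vehicle and 3024, 2437 and 2842 CPM with 10HDA, a log2 fold change of 0.052 that was above 0 in culture 4 alone.

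The mRNAs of ATP synthase, the enzyme that makes ATP from the proton gradient, overlap each other by 43 bases. mt-Atp8 had 85.8, 67.7 and 128 CPM with vehicle and 67.8, 42.0 and 95.1 CPM with 10HDA, and mt-Atp6 had 2812, 2440.1 and 3504 CPM with vehicle and 2424, 1938 and 2900.5 CPM with 10HDA. Both were lower in 3 of 3 cultures. Without the vehicle library of culture 4 the log2 fold change, -0.46 for mt-Atp8 and -0.27 for mt-Atp6 with all libraries, was -0.16 and -0.10. With culture as a block in edgeR's test, mt-Atp8 was called lower at -0.48 on the log2 scale (adjusted p = 0.00434), and mt-Atp6 at -0.27 (adjusted p = 0.0942). In that fit 4 members were called lower, these and the 2 rRNAs (adjusted p = 1.11e-06 for mt-Rnr1 and 0.000541 for mt-Rnr2), and 0 higher (8 of 16 were lower and 1 was higher at an unadjusted p under 0.05). Over all genes tested, the block called 5.08% lower and 3.91% higher. The block was also fitted without culture 1, which was chosen after the data were seen and leaves 1 residual degree of freedom. There 11 of the 16 were called lower and 0 higher, against 4.97% and 3.52% of all genes tested, with -0.79 for mt-Rnr1 (adjusted p = 2.43e-10), -0.51 for mt-Rnr2 (adjusted p = 0.000158), -0.53 for mt-Atp8 (adjusted p = 0.000914) and -0.28 for mt-Atp6 (adjusted p = 0.0638). The others called were mt-Nd1, mt-Nd2, mt-Nd4, mt-Nd4l, mt-Nd5, mt-Cytb and mt-Tp.

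**Figure D2:**
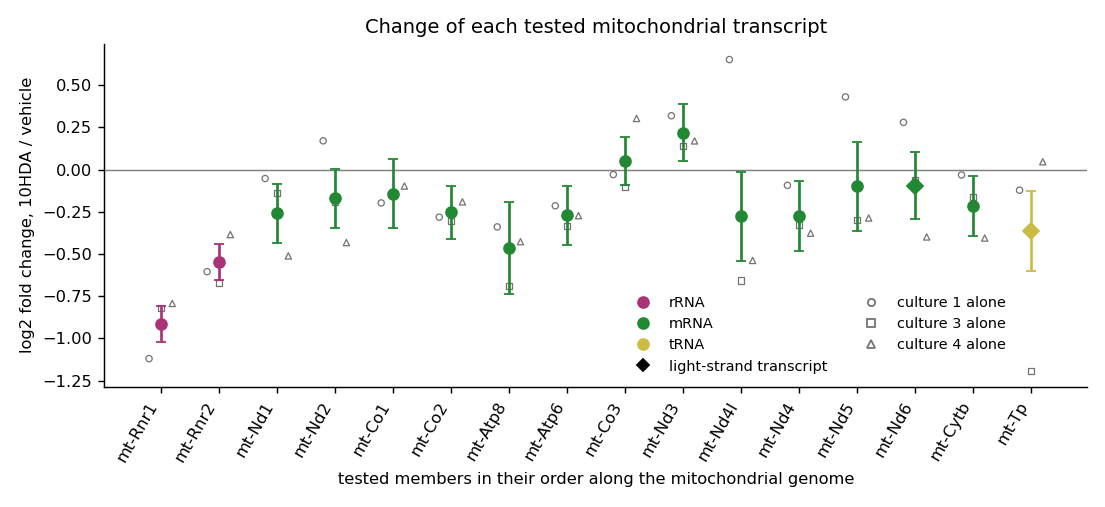
Log2 fold change, 10HDA against vehicle, of the 16 mitochondrial genes that passed the filter, in genome order. Filled points give edgeR's estimate, and bars a standard error calculated from it and the F statistic of the test. Colours give the class, diamonds mark light-strand transcripts, and open symbols give the log2 ratio within each culture. By edgeR's estimate with all libraries, mt-Rnr1 at -0.91 and mt-Rnr2 at -0.55 lay below the mRNAs, which ran from -0.46 to 0.22. Within cultures 3 and 4, mt-Atp8 had a lower log2 ratio than mt-Rnr2, and within culture 1 a higher one.

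Of the 22 tRNAs, 1 passed the filter of 10 CPM in 3 libraries, and the class held 2986 counts over the 6 libraries. At 59 to 75 bases, a tRNA gene leaves 10 to 26 positions at which a 50-base read can start and lie wholly inside it. The 5 most counted, mt-Tp, mt-Te, mt-Tl1, mt-Ty and mt-Tc, took 78.1% of the tRNA counts, and 4 of these 5 are on the light-strand transcript. A further 11 had fewer than 50 counts in all, of which mt-Tf, the tRNA for phenylalanine at the start of the heavy-strand transcript, had 0 counts in every library. mt-Tv, which lies between the rRNAs, had 1 count in all.

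mt-Tp had 171, 207 and 170 counts in the vehicle libraries of cultures 1, 3 and 4 and 164, 95 and 133 counts with 10HDA. On the scaled level, the 10HDA library of culture 3 stood apart at 7.0 CPM, whereas the other 5 had 14.4 to 16 CPM. Its log2 fold change was -0.36 ± 0.24 (SE, adjusted p = 0.616, edgeR), or -0.069 without that library.

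mt-Te, which is next to mt-Nd6 on the light-strand transcript, had 44, 68 and 72 counts with vehicle and 111, 160 and 49 counts with 10HDA. It was higher with 10HDA in cultures 1 and 3, whereas in culture 4 its level was 6.12 CPM with vehicle and 5.49 CPM with 10HDA. mt-Tc, also of the light-strand transcript, had 23, 26 and 26 counts with vehicle and 44, 60 and 20 counts with 10HDA. Its levels did not overlap, but in culture 4 they were 2.21 CPM with vehicle and 2.24 CPM with 10HDA, which cannot be told apart at this depth.

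mt-Ty, a light-strand tRNA for tyrosine, had 35, 39 and 60 counts with vehicle and 35, 34 and 41 counts with 10HDA. mt-Tl1, a heavy-strand tRNA for leucine that follows mt-Rnr2, had 63, 50 and 162 counts with vehicle and 70, 44 and 55 counts with 10HDA. The vehicle library of culture 4 stood above the others for mt-Tl1, as it did for most mRNAs. Each of the other 17 tRNAs had at most 34 counts in a library, and 3 counts correspond to 0.221 to 0.336 CPM.

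Without the filter on low counts, 21 tRNAs could be tested in a fit over 26859 genes, in which 1.27% were called lower and 1.09% higher. Of the 36 members in that fit, 5 were called lower, the 2 rRNAs among them, and 1 higher. mt-Tm and mt-Tq are named after their values were seen. Here mt-Tm, with 12, 16 and 28 counts with vehicle and 4, 5 and 6 with 10HDA, had a log2 difference of -1.78 (adjusted p = 0.00634, edgeR), and mt-Tq, with 11, 9 and 34 against 3, 10 and 6 counts, had one of -1.42 (adjusted p = 0.0482). mt-Te was called higher with 0.84 (adjusted p = 0.00544), and mt-Atp8 was called lower with -0.46 (adjusted p = 0.0181). These calls did not hold at a filter of 1 CPM in 3 libraries, where mt-Tm had an adjusted p of 0.179 and mt-Te one of 0.298, and mt-Tq was not tested.

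mt-Tq and mt-Tm lie side by side on opposite strands with 2 bases between them, and mt-Tq overlaps mt-Ti by 3 bases. Without a stated strand setting their reads cannot be assigned to a strand. As a share of tRNA counts, the 8 light-strand tRNAs took 75.3%, 75.0% and 62.7% with vehicle and 80.5%, 82.7% and 72.4% with 10HDA. This share was higher with 10HDA in 3 of 3 cultures, but the treatments overlapped. Heavy-strand tRNAs summed to 9.71, 9.67 and 21.1 CPM with vehicle and 8.60, 6.41 and 12.0 CPM with 10HDA, and light-strand tRNAs to 29.6, 29.0 and 35.3 CPM with vehicle and 35.5, 30.6 and 31.5 CPM with 10HDA.

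**Figure D3:**
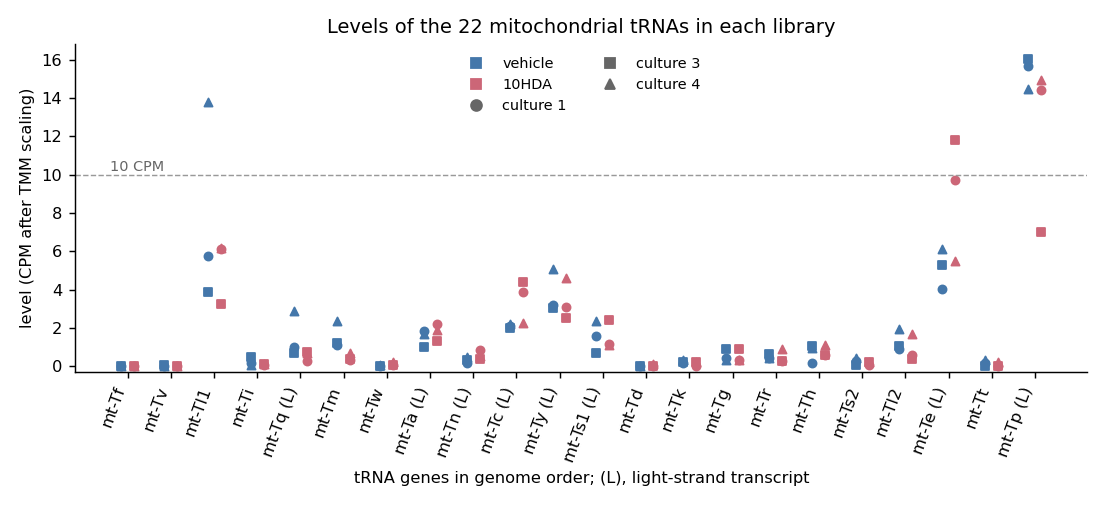
Level of each of the 22 mitochondrial tRNAs in each library, in CPM after TMM scaling, in genome order. Colours give the treatment, shapes give the culture, (L) marks light-strand transcripts, and the dashed line is the filter of 10 CPM. mt-Tp at 7.0 to 16 CPM was the tRNA above the filter in 5 of 6 libraries, and most tRNAs lay near 0.

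Copies of mitochondrial genes in the nuclear genome also held counts, which makes the split of counts uncertain for several mRNAs. A search of all annotated transcripts for exact matches to each stretch of 50 bases, the length of a read, found 100% of the stretches of mt-Co2 in another gene, 99.9% of mt-Co3, 99.5% of mt-Atp6, 98.8% of mt-Nd4l, 98.0% of mt-Nd3, 62.2% of mt-Nd4 and 51.1% of mt-Co1. It was 8.19% for mt-Nd2, 7.61% for mt-Nd5 and 1.04% for mt-Rnr2, and it was 0% for mt-Rnr1, mt-Nd1, mt-Nd6, mt-Cytb, mt-Atp8 and every tRNA. The result on mt-Rnr1 thus involved no annotated transcript with a shared stretch.

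As an example of such a copy, the first 100 bases of mt-Co3 (chrM:8607-8706, plus strand) are printed because they are identical to the start of the pseudogene Gm28437, which matches mt-Co3 over 783 bases without a difference.
mt-Co3, first 100 bases: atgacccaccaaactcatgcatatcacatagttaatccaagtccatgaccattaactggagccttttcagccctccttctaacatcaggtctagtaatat
Gm28437 had 101, 90.9 and 102 counts per 100 counts of mt-Co3 in the vehicle libraries and 97.7, 93.2 and 96.7 with 10HDA, so that reads of this sequence were divided about evenly between the gene and its copy in every library.

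With the copies' counts added, the log2 ratio of the treatment means was 0.038 for mt-Co3 (0.052 alone), -0.26 for mt-Co2 (-0.25 alone), -0.25 for mt-Atp6 (-0.27 alone), -0.40 for mt-Nd4l (-0.27 alone), 0.23 for mt-Nd3 (0.22 alone) and -0.54 for mt-Rnr2 (-0.55 alone). mt-Nd4l was the one that moved most, and it also had the most counts on copies, 179 to 276 per 100 of its own. The copy that shares stretches with mt-Rnr2, Gm20594, held 10 to 68 counts a library, against 4976 to 9270 for mt-Rnr2 itself. Together the 14 genes with shared stretches held 1.20% to 1.74% of all counts, beside 3.24% to 4.98% for the 37 mitochondrial genes.

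**Figure D4:**
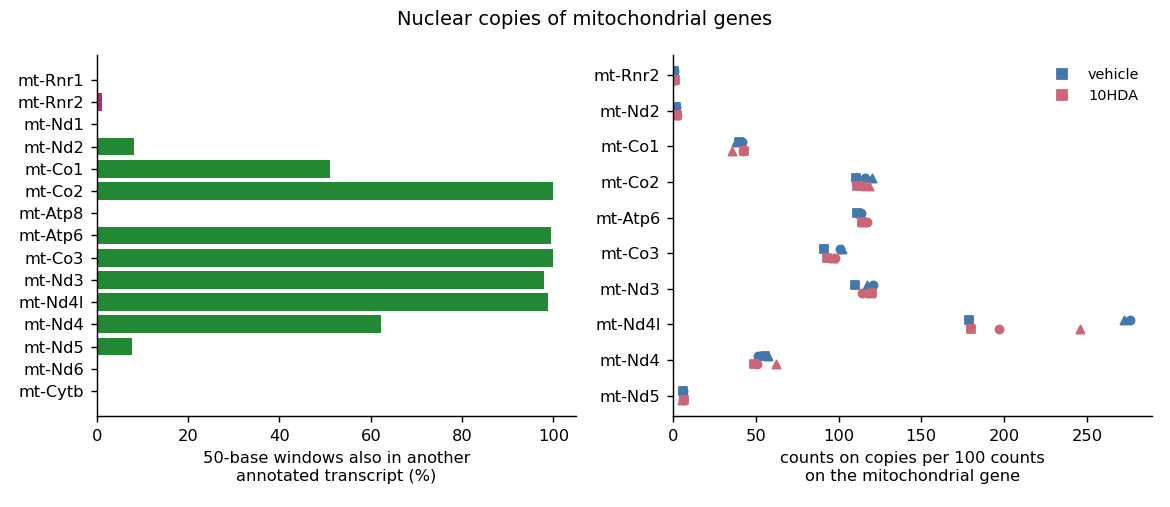
Left, percentage of the 50-base stretches of each mitochondrial rRNA and mRNA that occur without a difference in another annotated transcript. Right, counts on those other genes per 100 counts on the mitochondrial gene, a point for each library, by treatment. mt-Rnr1, mt-Nd1, mt-Atp8, mt-Nd6 and mt-Cytb share 0% of their stretches, and copies of mt-Co2, mt-Co3, mt-Atp6 and mt-Nd3 held 90.9 to 121 counts per 100.

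Nuclear genes that make, process and use the mitochondrial RNAs were read from 6 hand-written lists of 123 genes, of which 89 were tested. None was called in either direction with edgeR, and 4 had an unadjusted p under 0.05, as they did with DESeq2 and with limma-voom, which called 0 too. Over all genes tested with edgeR, 0.428% were called lower, 0.2% were called higher, and 10.1% had an unadjusted p under 0.05. Nothing is read from these counts. The median log2 fold change of the 89 was 0.051, with 57 above 0 and 32 below 0.

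Of 18 tested genes for transcription and maintenance of mitochondrial DNA, the median log2 fold change was 0.056. The smallest p belonged to Top1mt, a mitochondrial topoisomerase, with -0.22 ± 0.16 (SE), and to Polrmt, the mitochondrial RNA polymerase, with 0.16 ± 0.13 (SE). Polrmt had 38.7, 33.3 and 35.6 CPM with vehicle and 39.9, 45.6 and 34.8 CPM with 10HDA, and thus overlapped. Among 21 genes for RNA processing and stability, with a median of -0.0017, were Rcc1l, which acts in assembly of the mitochondrial ribosome, with 0.53 ± 0.16 (SE, adjusted p = 0.296, edgeR), and Mtpap, the mitochondrial poly(A) polymerase, with 0.37 ± 0.15 (SE, adjusted p = 0.450, edgeR). The nucleases that free the tRNAs did not stand out, with -0.041 for Elac2 and 0.0036 for Trmt10c, a subunit of mitochondrial RNase P. These 2 were named for their role after the values were seen.

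For 13 genes of tRNA modification the median was 0.079, and Gtpbp3, which modifies the wobble base, had 0.31 ± 0.17 (SE), and Nsun3, which methylates the methionine tRNA, had 0.22 ± 0.13 (SE). The 19 aminoacyl-tRNA synthetases and their partners had a median of 0.064, with -0.23 for Kars, the lysine enzyme shared with the cytosol. The 11 genes listed with the translation factors had a median of 0.043. Of these, Tsfm, the mitochondrial elongation factor Ts, had 0.59 ± 0.21 (SE, adjusted p = 0.392, edgeR). Letm1, which was on this list but is not itself a translation factor, had -0.12. For the 7 regulators of mitochondrial biogenesis the median was 0.015, with 0.19 for Esrra, an orphan nuclear receptor, and -0.096 for Pprc1, a coactivator.

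With culture as a block, 3 of these 89 genes were called higher, a share near the 3.91% of all genes tested. In the lower direction 0 were called, against 5.08% of all genes tested. Nothing is read from these counts. An unadjusted p under 0.05 was found for 11 of the 89, against 2105 of the 10520 genes tested. The 3 were Tsfm (0.58, adjusted p = 0.0130), Rcc1l (0.53, adjusted p = 0.0168) and Mtpap (0.38, adjusted p = 0.0905), each with edgeR. Tsfm had 13.5, 10.1 and 8.16 CPM with vehicle and 17.9, 17.6 and 11.8 CPM with 10HDA, higher in 3 of 3 cultures but overlapping. Rcc1l had 17, 13.3 and 13.42 CPM with vehicle and 21.3, 24.3 and 17.4 CPM with 10HDA, which did not overlap. Mtpap had 15, 20.6 and 16.1 CPM with vehicle and 24.7, 22.3 and 20.1 CPM with 10HDA. With the block and without culture 1, 2 of the 86 nuclear genes then tested were called higher, Rcc1l (0.66, adjusted p = 0.00306, edgeR) and Ngrn (0.42, adjusted p = 0.0372, edgeR), a factor that binds the mitochondrial rRNA of the large subunit. Over all genes tested in this fit, which leaves 1 residual degree of freedom, 3.52% were called higher and 4.97% lower. Mtpap was not called there, and Tsfm did not pass the filter.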

How the data were processed

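RNA was sequenced in 6 libraries from cortical cultures, 3 per treatment. According to the methods, the authors aligned untrimmed 50-base single-end reads to mm10 with Subjunc (Subread 1.4.4 in the submitters' processing notes) and assigned them to Gencode gene models with featureCounts. The deposited values are these raw counts, not normalized, and the table held 0 columns of other samples. Symbols, coordinates and sequences came from GENCODE M21 (GRCm38), which matched 98.0% of identifiers.

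The 10520 genes reaching 10 CPM in 3 or more libraries were scaled by TMM and tested with edgeR 4.0.16 (quasi-likelihood, no culture term, Benjamini-Hochberg, threshold 0.1) in R 4.3.3. Alternatives included DESeq2 1.42.0 and limma 3.58.1. On simulated data, 200 of 200 genes changed by a log2 fold change of 1 were recovered, with 22 false calls. The simulated libraries had no culture effect, and smaller changes, such as those of the tested members, were not simulated. The floor of 3 counts covers counting error only, whereas the SD and SE values include the spread between libraries.

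The labels give each culture 1 library per treatment, so culture numbers pair the libraries. Deviations of a culture's libraries from the treatment means correlated across genes at 0.368, 0.235 and 0.616 (other pairs -0.449 to 0.183).

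The members and the gene lists were chosen with earlier results of these data known. All 37 members are accounted for, with values per library for those tested and for the 5 most counted tRNAs, and each nuclear list is represented by called genes or the 2 with the smallest p. A result that this rule would name is not reported here. The libraries of another experiment of the series were not used here. Cultures are taken as independent, and p-values measure only the spread between these libraries.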

Additional observations from a re-analysis of the deposited data

How the results depend on the processing

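Over the whole table edgeR called 66 genes, against 636 without the filter, 170 with DESeq2, 945 with culture as a replicate block, 1347 with the block and no filter and 869 with the block without culture 1 (both added after seeing the data), 43 at a threshold of 0.05, 2 without culture 1, 0 without culture 3 (689 at an unadjusted p under 0.05), 35 without culture 4, and 0 to 355 when 1 library was left out (0 without the 10HDA library of culture 1, where 453 had an unadjusted p under 0.05). Members called lower numbered 2, against 1 with library size alone, 5 without the filter, 4 with the block, 10 with the block and no filter, 11 with the block without culture 1, 0 without culture 1, 0 without culture 3, 1 at 0.05, and 0 to 2 with 1 library left out. Members called higher numbered 0, against 1 without the filter and 2 with the block and no filter. Nuclear genes called numbered 0, against 2, 3 and 5 without the filter, with the block and with both, 2 with the block without culture 1, and 0 to 2 with 1 library left out. With single libraries left out, the log2 ratio of the mRNA share ran from -0.21 to 0.060 (0.060 when vehicle 4 was dropped, 0.011 when 10HDA 3 was dropped, against -0.098 with all), that of the tRNA share from -0.11 to 0.14 (0.14 when vehicle 4 was dropped, 0.034 when 10HDA 3 was dropped, against -0.030 with all), and that of the light-strand share from 0.064 to 0.20. Without culture 4 the tRNA share gave 0.13. Mitochondrial genes held 4.15% of vehicle counts, 5.66% with the fixed list of copies and 5.69% with copies by shared stretches, added after seeing the data. Without culture 4 the log2 fold change turned to 0.0049 for mt-Nd2, -0.058 for mt-Co3, 0.067 for mt-Nd5 and 0.12 for mt-Nd6, none of them called. With 1 library left out, values that turned lay in ranges of -0.26 to 0.074 for mt-Nd2, -0.35 to 0.046 for mt-Co1 (0.00043 without 10HDA 3), -0.025 to 0.19 for mt-Co3 (-0.015 without 10HDA 1), -0.56 to 0.043 for mt-Nd4l, -0.31 to 0.29 for mt-Nd5 (0.061 without 10HDA 3), -0.20 to 0.22 for mt-Nd6 (0.023 without 10HDA 3) and -0.31 to 0.0050 for mt-Cytb, and the other turns were without the vehicle library of culture 4. Without that library the value was -0.013 for mt-Nd1 (-0.26 with all), -0.010 for mt-Nd4 (-0.28), -0.16 for mt-Atp8 (-0.46) and -0.10 for mt-Atp6 (-0.27). The cause of these differences was not tested. Of 336 log2 fold changes of named members under alternatives, 292 kept direction and call, 18 gained a call, 11 lost one and 15 turned. Of 60 ratios of named members, which have no call, 2 turned, the mt-Nd6 share of mRNA counts without culture 1 (-0.0062 against 0.10) and the mt-Tp share of tRNA counts without culture 3 (0.031 against -0.32). Library size alone moved the median of all genes by 0.076. tRNAs with fewer than 50 counts are limited by depth.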
